A study of Mus musculus with 6 samples.

Results

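Genes that make cholesterol and fatty acids were followed in the fibroblasts of mouse mammary tumors, called cancer-associated fibroblasts or CAFs. The set holds 29 genes under control of the sterol regulatory element-binding proteins (SREBPs), matched by symbol among 27179 genes of the count table, and all 29 were among the 14855 genes that passed the low-count filter. The list is a working selection and does not hold every enzyme of either pathway. It comprises 20 sterol genes, 6 fatty acid genes and 3 regulators (Srebf1, Srebf2 and Insig1).

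Tumors came from the raGFP-Wnt1 line, in which female mice carry an MMTV-driven Wnt1 transgene and a heterozygous Pdgfra reporter allele that places green fluorescent protein in the nuclei of fibroblasts. The labels name no treatment and no age. Each of 3 tumors was sorted into GFP+ CAFs without and with surface CD34, so that all 6 libraries (3 per group) share the transgene and the reporter and each CD34- library has a CD34+ partner from the same tumor. Sorting on GFP selects both groups for cells that carry the Pdgfra reporter signal, and the Wnt1 transgene makes this 1 kind of mammary tumor. The sort need not be pure, and markers of other cells are given below.

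Sterols are built from acetyl-CoA by way of mevalonate, isoprenoid diphosphates, squalene and lanosterol, and fatty acids from the same precursor by carboxylation, repeated condensation, elongation and desaturation. When membranes of the endoplasmic reticulum are low in sterol, the escort protein SCAP carries SREBPs to the Golgi, where a pair of proteases release the fragment that enters the nucleus, whereas INSIG proteins hold the complex back when sterol is plentiful. SREBP-2 (from Srebf2) mainly serves sterol genes and SREBP-1 (from Srebf1) mainly fatty acid genes. Fibroblasts use the products for membranes, and both pathways are commonly active in dividing cells.

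Total counts lay between 16238059 and 86609267 per library, and 14314 to 19220 genes had a count. The shallowest library was CD34+ library 1 and the deepest CD34+ library 2, and member counts ranged from 9 to 23378 in a library. CD34- library 3 had counts for the fewest genes. Fibroblast markers (6 genes, Col1a1 and Pdgfra among them) summed to between 39910 and 58640 CPM, which are counts relative to the scaled library total. Most of that sum was Col1a1 and Col1a2. In limma-voom with the tumor as a block, explained below, Dcn and Lum were called lower in CD34- CAFs (adjusted p 0.00154 and 0.014). Pdgfrb was called higher (0.00714), and Pdgfra, Col1a1 and Col1a2 were not called. In that fit 8.57% of all genes were called. Without the block, limma-voom called none of the 6. Markers of other cells were low beside the fibroblast sum, but less so beside Pdgfra alone, at 302 to 506 CPM. Among them, Cspg4 reached 129 CPM and Krt8 61.7 CPM, levels within the range of the members. Summed CPM of 6 epithelial genes, 5 of them higher in CD34- CAFs in 3 of 3 tumors and none called, were 12.8 to 130 in CD34+ and 48.3 to 149 in CD34- libraries, of 5 milk and alveolar genes 1.09 to 18.7 and 3.60 to 17.3, of 5 immune genes 10.1 to 15.6 and 15.7 to 20.5, and of 4 endothelial genes 7.23 to 27.4 and 5.91 to 18.9. The 4 pericyte genes (Rgs5, Cspg4, Mcam and Des) were all higher in CD34- CAFs in 3 of 3 tumors, as were 22.8% of all genes tested. The pericyte sums were 18.3 to 62.3 CPM in CD34+ and 143 to 175 CPM in CD34- libraries. With the block, limma-voom called 3 of them (Mcam, Cspg4 and Des) and edgeR 2, where 8.57% and 3.87% of all genes were called. Without it, both called 0 and DESeq2 called 4 (5.45% of all genes with an adjusted p). The part of these genes in the results below was not tested. Among 6 adipocyte markers, Cidec, Lep and Retn had no count in any library, Plin1 had counts in 1 library, and Adipoq reached at most 0.882 CPM. The adipocyte sum was 1.73 to 34.5 CPM in CD34+ and 4.77 to 13.9 CPM in CD34- CAFs. It was nearly all Fabp4, which other cells also express, except in CD34+ library 3, where Adipoq was at 0.882 and Fabp4 at 0.847 CPM.

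Of the 29 members, 6 differed between the fractions when each tumor was compared with itself, 3 in each direction. A gene is said to have passed, or to be called, when its adjusted p was under 0.05 over all genes tested, and the block is a model term for the tumor, so that each CD34- library is set against its own CD34+ partner. With the tumor as a block in limma-voom, a linear model of log2 counts, Elovl6, Scd1 and Acly were lower in CD34- CAFs, by 4.24-fold, 1.97-fold and 1.47-fold, whereas Srebf1, Ebp and Cyp51 were higher, by 1.70-fold, 1.65-fold and 1.5-fold. Without the block none of them passed in limma-voom, except Elovl6 when sample quality weights were used, and DESeq2 called Srebf1, Acly and Elovl6. Of the sterol enzymes neither passed in edgeR with the block. The 2 sterol genes called of 20 are 10%, near the 8.57% of all genes tested called in limma-voom with the block. That count thus says nothing particular of the sterol genes. In the same fit, the 6 calls were 20.7% of all members, and the 3 fatty acid calls were 50% of the 6 fatty acid genes. The members were chosen with earlier results of these data known. The other 23 members passed in neither limma-voom fit. Fasn and Acaca, the enzymes between Acly and Elovl6, were not called, and Scd2, the close relative of Scd1, was not called either.

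In limma-voom without a tumor term, 0 of the 29 members had an adjusted p under 0.05, against 0.121% of all genes tested (0.0202% called higher and 0.101% called lower). At an unadjusted p under 0.05, there were 5 members, and these were Srebf1, Ebp, Acly, Elovl6 and Scd1. That is 17.2% of the members, where 14.3% of all genes tested had such a p. The quasi-likelihood test of edgeR, also without the block, called 0 members (0.0606% of all genes). It had 6 members (20.7%) at an unadjusted p under 0.05, against 12.5% of all genes. DESeq2 called 3, Srebf1, Acly and Elovl6 (5.45% of all genes with an adjusted p). With the tumor as a replicate block, limma-voom called 6 members (20.7%), 3 higher and 3 lower. It called 8.57% of all genes (4.32% higher and 4.25% lower). The edgeR fit with the block called 3, Srebf1, Scd1 and Elovl6 (3.87% of all genes). In both fits with the block, 10 members (34.5%) had an unadjusted p under 0.05. Of all genes tested, 23.3% had such a p in limma-voom and 19.5% in edgeR. CPM of the 2 groups of libraries did not overlap for 9 members. They were Srebf1, Pmvk, Mvd, Ebp and Fasn on the higher side, where 10.4% of all genes stood, and Hsd17b7, Acly, Elovl6 and Scd1 on the lower side, where 10% stood. Bulk libraries cannot tell fewer cells expressing a gene from less RNA per cell. The replicates are separate tumors, and whether they came from separate mice is not stated in the labels. Without the block, p-values rest on the spread between these 3 tumors within each fraction. With it, they rest on how far the difference between fractions varied from tumor to tumor.

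**Figure D1:**
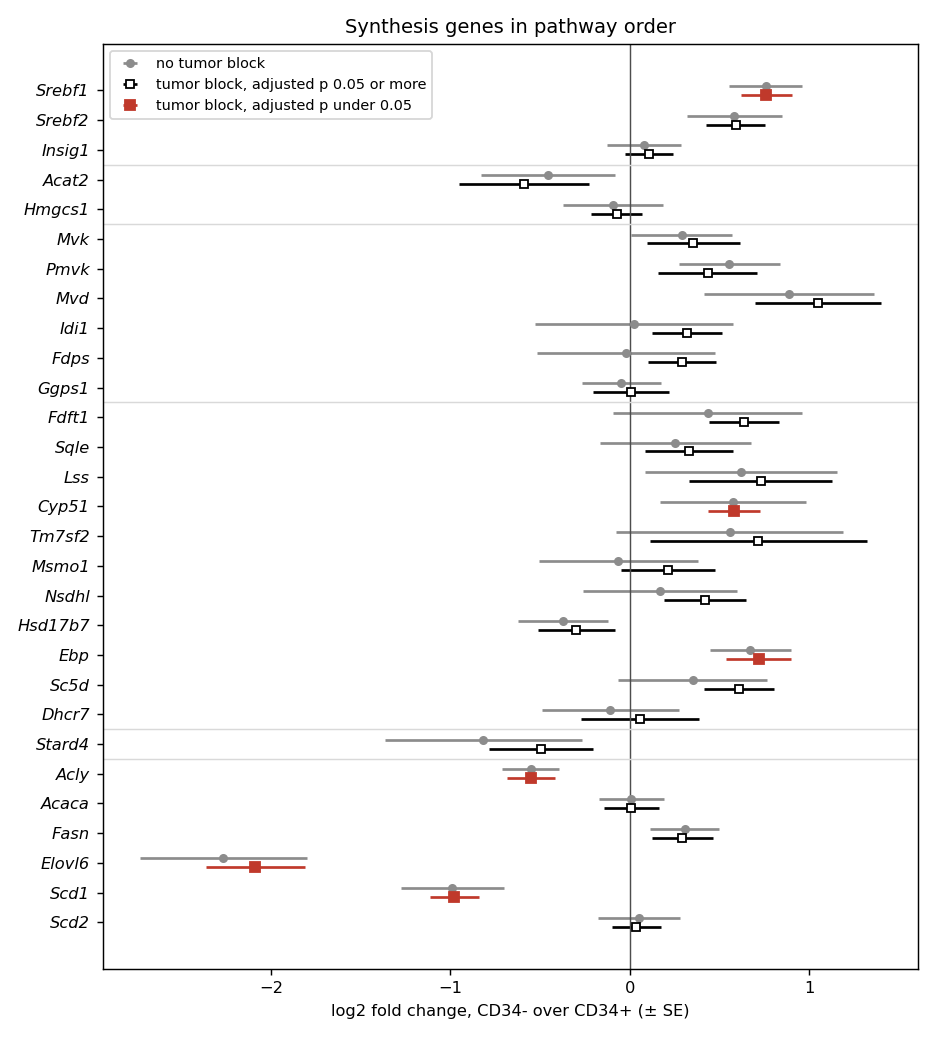
Log2 fold change of CD34- over CD34+ CAFs for the 29 members in pathway order, as points with SE bars, from limma-voom without (circles) and with (squares) the tumor as a block; n = 3 libraries per group. Filled red squares mark the 6 members with an adjusted p under 0.05 with the block, from Elovl6 at -2.09 to Srebf1 at 0.76.

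The 3 regulators were examined first. Srebf1 (gene 20787, chromosome 11, 60199084 to 60224186 of GRCm38.p6), which encodes SREBP-1, stood at 46.9, 47.5 and 54.7 CPM in CD34+ libraries 1, 2 and 3 and at 75.8, 73.3 and 107 CPM in CD34- libraries 1, 2 and 3. Every CD34- library was above every CD34+ library. Means were 85.4 ± 18.9 (SD, n = 3) in CD34- and 49.7 ± 4.32 (SD, n = 3) in CD34+ CAFs. In limma-voom the log2 fold change was 0.76 ± 0.20 (SE; adjusted p 0.154) without the block and 0.76 ± 0.14 (adjusted p 0.0126) with it. With the block it passed whichever tumor was left out, at 0.64 to 0.84. Rai1, whose annotated span overlaps that of Srebf1, had 8322 counts in all against 17830 for Srebf1, so reads where they overlap cannot be assigned with certainty.

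Srebf2, which encodes SREBP-2, was also above its partner in each tumor. Its CPM were 44.0, 76.3 and 90.1 in CD34+ and 88.5, 121 and 104 in CD34- libraries, and the groups overlapped by a small margin, CD34- library 1 being just below CD34+ library 3. The log2 fold change was 0.58 ± 0.27 without and 0.59 ± 0.17 with the block (limma-voom, adjusted p 0.366 and 0.0603), and it passed with the block only in the fit without tumor 3, at 0.79. Insig1, which holds the SCAP and SREBP complex in the endoplasmic reticulum and is itself an SREBP target, stood at 71.8, 78.3 and 94.1 CPM in CD34+ and 68.5, 91.9 and 102 CPM in CD34- libraries. These ranges lay on top of each other, with a difference of 0.11 on the log2 scale with the block (95% interval -0.19 to 0.41, adjusted p 0.702 in limma-voom).

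**Figure D2:**
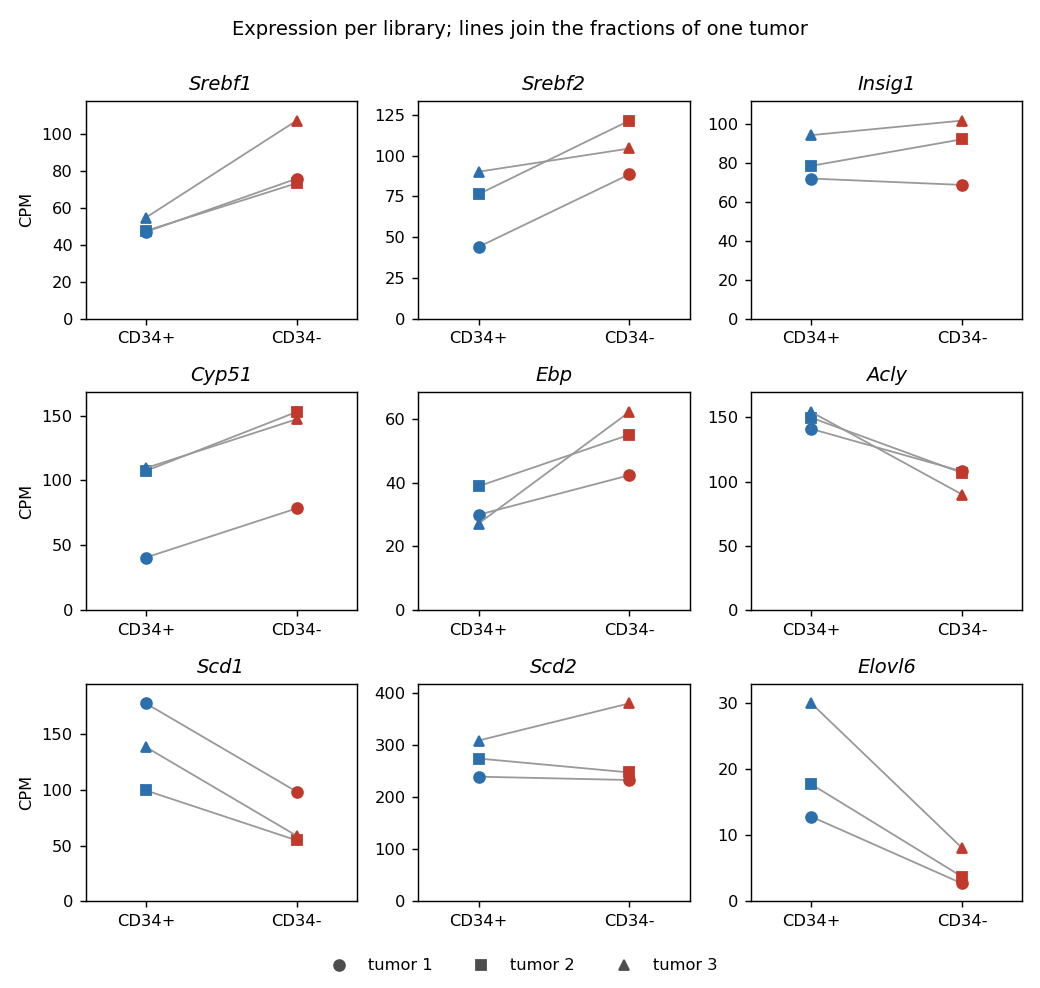
CPM of 9 members in each library, with a separate linear axis from 0 for each gene; blue points are CD34+ and red points CD34- CAFs, symbols mark the tumor and gray lines join the 2 fractions of a tumor. Lines rise in 3 of 3 tumors for Srebf1, Srebf2, Cyp51 and Ebp and fall in 3 of 3 for Acly, Scd1 and Elovl6.

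The fatty acid genes included the member with the largest difference, Elovl6, and the 3 members called lower. In limma-voom with the block, 3 of the 6 (50%) were called, all lower, where 4.25% of all genes were called lower. The edgeR fit with the block and DESeq2 each called 2 (33.3%), against 3.87% of all genes and 5.45% of those with an adjusted p. Without the block, limma-voom and edgeR called 0. In each fit 3 (50%) had an unadjusted p under 0.05, against 12.5% to 23.3% of all genes tested. Acly (gene 104112, chromosome 11, 100476352 to 100528000), which splits citrate into the cytosolic acetyl-CoA that both pathways consume, stood at 141, 150 and 154 CPM in CD34+ and at 108, 107 and 90.0 CPM in CD34- libraries. The ranges were narrow and did not overlap. The log2 fold change was -0.55 ± 0.16 without and -0.55 ± 0.13 with the block (limma-voom, adjusted p 0.178 and 0.0344). With the block, the call was lost without tumor 2 and in the edgeR test.

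Acaca, which makes malonyl-CoA, and Fasn, which assembles palmitate from it, did not pass. Acaca was at 36.6, 47.2 and 49.1 CPM in CD34+ and 44.5, 42.2 and 49.9 CPM in CD34- libraries, with a difference of 0.01 (95% interval -0.34 to 0.36 with the block, adjusted p 0.981 in limma-voom). Tada2a overlaps Acaca in the annotation. Fasn was at 69.7, 96.1 and 99.0 CPM in CD34+ and 125, 104 and 101 CPM in CD34- libraries. The groups were separate by a small gap between libraries 3, and the log2 fold change of 0.29 with the block had a 95% interval of -0.09 to 0.68 (limma-voom, adjusted p 0.358).

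Elovl6 (gene 170439, chromosome 3, 129532386 to 129638495), which lengthens palmitate to stearate, was at 12.8, 17.7 and 29.9 CPM in CD34+ and at 2.71, 3.72 and 8.06 CPM in CD34- libraries. In each tumor the CD34- library was far below its partner, and the groups did not overlap. Its log2 fold change was -2.27 ± 0.47 without the block (limma-voom, adjusted p 0.0906), and -2.09 ± 0.28 with it (adjusted p 0.00290). The within-tumor log2 ratios were -2.24, -2.25 and -1.89, and with the block Elovl6 passed whichever tumor was left out, at -2.26 to -2.02. Without the block it passed in DESeq2 and with sample quality weights. Means were 4.83 ± 2.84 (SD, n = 3) in CD34- and 20.2 ± 8.83 CPM (SD, n = 3) in CD34+ CAFs. Per length of transcript, Elovl6 stood at 0.307, 0.308 and 0.505 of Fasn in CD34+ libraries and at 0.0363, 0.0600 and 0.134 of it in CD34- libraries.

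Scd1 and Scd2 lie next to each other on chromosome 19 and encode stearoyl-CoA desaturases, which place a double bond in stearate and palmitate. Scd1 (gene 20249, 44394450 to 44407709) was at 177, 99.4 and 138 CPM in CD34+ and at 98.3, 54.7 and 58.8 CPM in CD34- libraries. All CD34- libraries were below all CD34+ libraries, although the highest of the first, library 1, came close to the lowest of the second, library 2. The log2 fold change was -0.99 ± 0.29 without the block (limma-voom, adjusted p 0.181), and -0.98 ± 0.14 with it (adjusted p 0.00360). With the block, the call stood whichever tumor was left out, at -1.05 to -0.87.

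Scd2 (gene 20250, 44293676 to 44306864) was the most abundant member per length, at a mean of 51.3 CPM per kilobase of transcript (RPKM) over the 6 libraries, against 21.6 RPKM for Scd1. It stood at 239, 274 and 308 CPM in CD34+ and 232, 247 and 379 CPM in CD34- libraries, which overlapped throughout. The difference was 0.04 with the block (95% interval -0.27 to 0.34, adjusted p 0.906 in limma-voom), an interval that does not reach the change of Scd1. Per length, Scd1 stood at 0.836, 0.409 and 0.506 of Scd2 in CD34+ libraries 1, 2 and 3 and at 0.477, 0.250 and 0.175 of it in the CD34- partners. The share was lower in CD34- CAFs in 3 of 3 tumors. How reads that match both paralogs were counted is not stated, so their separation carries an uncertainty.

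The sterol branch was then followed from its first step. Neither gene of the steps to HMG-CoA passed in limma-voom, edgeR or DESeq2, and none had an unadjusted p under 0.05. Hmgcs1, which makes HMG-CoA, was among the most abundant members per length at 33.7 RPKM. It stood at 83.4, 114 and 143 CPM in CD34+ and 73.8, 129 and 120 CPM in CD34- libraries, which overlapped, and its difference was -0.07 with the block (95% interval -0.39 to 0.24). Acat2, the cytosolic thiolase that supplies acetoacetyl-CoA, was at 18.9, 10.3 and 5.79 CPM in CD34+ and 6.21, 7.48 and 8.17 CPM in CD34- libraries. It was lower in tumors 1 and 2 and higher in tumor 3, with log2 ratios of -1.60, -0.46 and 0.50.

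Of the 6 genes from mevalonate to the isoprenoid diphosphates, 4 were higher in CD34- CAFs in 3 of 3 tumors, as were 22.8% of all genes tested. None of the 6 passed in limma-voom, with or without the block, in edgeR or in DESeq2. At an unadjusted p under 0.05 there were 0 in limma-voom without the block and 1 (16.7%) in each of the other fits. Of all genes tested, 12.5% to 23.3% had such a p in these fits. Mvd, which decarboxylates mevalonate diphosphate, had the largest difference of the sterol genes, although at low levels. It stood at 2.60, 3.93 and 4.55 CPM in CD34+ and 5.04, 6.51 and 13.3 CPM in CD34- libraries, without overlap, and its log2 fold change was 0.89 ± 0.47 without and 1.05 ± 0.35 with the block (limma-voom, adjusted p 0.436 and 0.107). Pmvk, the kinase of the step before it, was at 8.60, 5.87 and 8.40 CPM in CD34+ and 11.4, 9.32 and 8.94 CPM in CD34- libraries. These did not overlap either, and the log2 fold change was 0.56 without and 0.44 with the block (adjusted p 0.414 and 0.404).

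Mvk and Idi1 were the others that were higher in each tumor, at log2 fold changes of 0.35 and 0.32 with the block and 0.29 and 0.02 without it. Fdps, which joins isoprenoid units to farnesyl diphosphate, was at 0.29 with and -0.02 without the block, and Ggps1, at the branch toward geranylgeranylated proteins, at 0.01 with log2 ratios of -0.50, 0.29 and -0.04.

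The 11 genes from squalene to cholesterol comprised the 2 sterol enzymes that passed. Cyp51 (gene 13121, chromosome 5, 4080674 to 4104697), the demethylase of lanosterol, was at 40.5, 107 and 109.5 CPM in CD34+ and at 78.4, 153 and 147 CPM in CD34- libraries. It was higher in each tumor, but the groups overlapped, since CD34- library 1 was below CD34+ libraries 2 and 3. The log2 fold change of 0.58 had an SE of 0.41 (limma-voom, adjusted p 0.556) without the block and of 0.15 (adjusted p 0.0402) with it. With the block it passed without tumor 3 (0.67) but not without tumor 1 or 2, nor in the edgeR test. Without the block, its fold change was 0.16 without CD34+ library 1.

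Ebp (gene 13595, chromosome X, 8185329 to 8193512), a sterol isomerase of the late pathway, was at 30.0, 38.9 and 27.2 CPM in CD34+ and at 42.4, 55.1 and 62.3 CPM in CD34- libraries. These ranges did not overlap. Its log2 fold change was 0.67 ± 0.23 without the block (adjusted p 0.244 in limma-voom) and 0.72 ± 0.18 with it (adjusted p 0.0417). With the block it passed without tumor 1 and not without tumor 2 or 3, where it was 0.89 and 0.49, nor in the edgeR test. In edgeR, with or without the block, and in DESeq2, 0 of the 20 sterol genes passed. At an unadjusted p under 0.05 there were 5 (25%) in edgeR with the block, 2 (10%) without it and 2 (10%) in DESeq2, where 19.5%, 12.5% and 14.5% of all genes tested had such a p.

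The other 9 genes of this stretch did not pass over the 3 tumors, although Sqle (0.72, adjusted p 0.0297) and Sc5d (0.76, adjusted p 0.0161) passed in limma-voom with the block when tumor 3 was left out. With the block, Fdft1 (squalene synthase) was at 0.64, Lss (which closes the sterol ring) at 0.73, Sc5d (a late desaturase) at 0.61 and Nsdhl (which works in the removal of methyl groups) at 0.42, each higher in 3 of 3 tumors, with adjusted p of 0.0807 to 0.322 in limma-voom. Without the block these 4 were at 0.43, 0.62, 0.35 and 0.17, with adjusted p of 0.637 to 0.892. Fdft1 overlaps Ctsb in the annotation, which had 356509 counts in all against 5950. Tm7sf2 overlaps Vps51, with 4913 counts in all against 526. Lss and Tm7sf2, a sterol reductase, had the lowest levels of all members, each at 1.25 RPKM or less. Sqle, the epoxidase that is a control point of the pathway, had log2 ratios of 1.18, 0.59 and -0.36, Tm7sf2 of 1.95, 0.96 and -0.68, and Dhcr7, which catalyzes a final reduction to cholesterol, of 0.77, 0.40 and -1.11, so these 3 were lower in CD34- CAFs of tumor 3 and higher in those of tumors 1 and 2. Msmo1, which also acts on methyl groups, was at -0.76, 0.73 and -0.06. Hsd17b7, a partner of Msmo1 and Nsdhl, was the exception, at 17.1, 16.2 and 21.3 CPM in CD34+ and 10.7, 15.8 and 16.2 CPM in CD34- libraries, with a log2 fold change of -0.30 and an adjusted p of 0.473 with the block. Stard4, a carrier of sterol between membranes, had log2 ratios of 0.16, -0.32 and -1.0 and an adjusted p of 0.357 with the block.

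**Figure D3:**
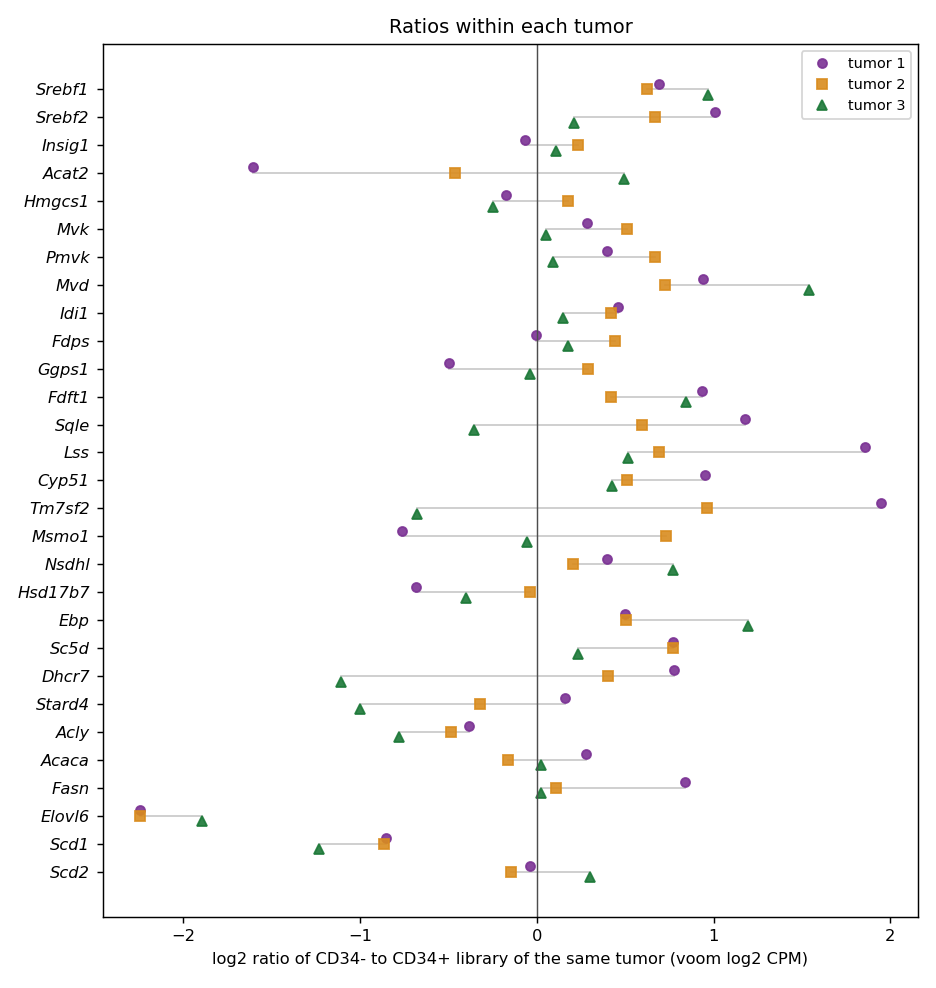
Log2 ratio of the CD34- to the CD34+ library of the same tumor for the 29 members, with 1 symbol per tumor, set slightly apart in height, and a gray line over their range. Elovl6 lies between -2.25 and -1.89 in all tumors, whereas Acat2, Tm7sf2 and Dhcr7 have ratios on both sides of 0.

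Over the 20 sterol genes, the median log2 fold change was 0.21 without and 0.34 with the block, against -0.03 and -0.01 over all genes tested. In tumors 1, 2 and 3, 14, 17 and 12 of the 20 were higher in the CD34- library, with median log2 ratios of 0.43, 0.47 and 0.12. The sterol genes that were higher in 3 of 3 tumors numbered 10 and those lower in all 3 numbered 1, where 22.8% and 23.4% of all genes tested were so. The median over all 29 members was 0.08 without and 0.29 with the block, and that of the 6 fatty acid genes -0.27 in both. The sterol median without the block was -0.01 without CD34+ library 1 and 0.01 without CD34- library 2. In that unpaired fit its size, and in the first case its direction, thus rested on those libraries. Leaving out 1 library also leaves its tumor with 1 fraction only. With the block, the median was 0.41, 0.17 and 0.45 without tumors 1, 2 and 3.

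For many sterol genes tumor 1 stood apart from the others. Summed over the 11 squalene and sterol ring genes, expression was 140, 277 and 299 CPM in CD34+ and 213, 394 and 383 CPM in CD34- libraries 1, 2 and 3, with Cyp51 as the largest part. The sums of the 6 mevalonate genes were 57.1, 75.9 and 89.3 CPM against 60.2, 103 and 104 CPM, and those of the 6 fatty acid genes 676, 684 and 779 against 610, 558 and 687 CPM. For the sterol ring genes, the CD34- sum was above its partner in each tumor, but both fractions of tumor 1 were below the CD34+ fractions of tumors 2 and 3. Tumor 1 gave the lowest library of both fractions for 12 of the 20 sterol genes, and for 16.8% of all genes tested. Idi1 and Fdps were examples, at 6.13 and 9.47 CPM in CD34+ library 1 and 8.46 and 9.45 CPM in CD34- library 1 against at least 19.0 CPM in the other 4 libraries. CD34+ library 1 was the shallowest library, at 16238059 counts, and CD34- library 1 held 59685694. The part of depth in this pattern was not tested.

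Proliferation markers were placed beside these values. The 10 markers were lower in CD34- CAFs in 3 of 3 tumors, as were 23.4% of all genes tested. With the block, 6 of the 10 were called lower in limma-voom and 4 in edgeR, where 8.57% and 3.87% of all genes tested were called. Without the block 0 were called in limma-voom, edgeR or DESeq2, where 6, 1 and 4 had an unadjusted p under 0.05. Of all genes tested, 14.3%, 12.5% and 14.5% had such a p in those fits. Their summed CPM were 53.8, 369 and 93.5 in CD34+ and 16.1, 81.5 and 33.3 in CD34- libraries. Elovl6, Scd1 and Acly were likewise lower in the CD34- library of each tumor, and Srebf1, Cyp51 and Ebp were higher. Among CD34+ libraries, library 2 had the highest marker sum, while Elovl6 and Acly were highest in library 3 and Scd1 in library 1. The part of cell division in these differences was not tested.

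**Figure D4:**
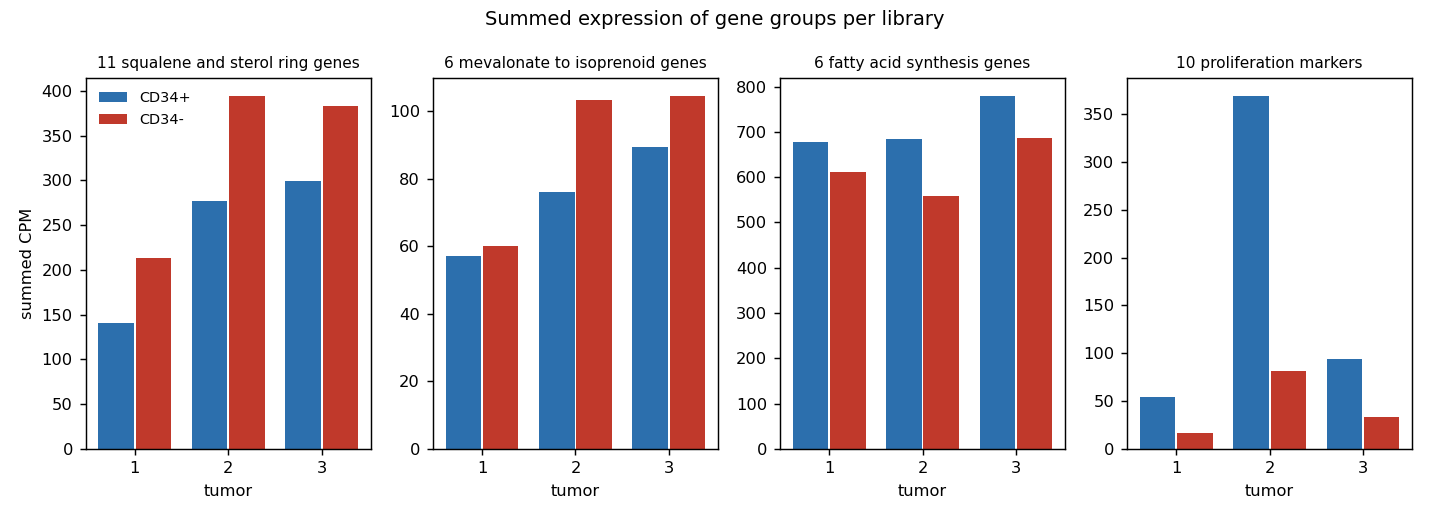
Summed CPM of 4 gene groups in each library, each panel with its own axis, as bars from 0 with CD34+ CAFs in blue and CD34- CAFs in red, by tumor. The sterol ring genes are higher in CD34- CAFs in each tumor (213 against 140, 394 against 277 and 383 against 299 CPM), and the proliferation markers lower.

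Other genes of the SREBP pathway were then considered, of which 15 had been listed. At an unadjusted p under 0.05 in limma-voom without the block there were 2 (13.3%), against 14.3% of all genes tested. In limma-voom 1 (6.67%) passed with the block, where 8.57% of all genes did, and 0 without it, where 0.121% did. The edgeR test called 0 without and 1 with the block (0.0606% and 3.87% of all genes), and DESeq2 called 1 (5.45% of all genes with an adjusted p). In each case this was Scap (gene 235623, chromosome 9, 110333288 to 110384949), the escort of the SREBPs. It was at 47.5, 62.2 and 56.3 CPM in CD34+ and at 105, 115 and 101 CPM in CD34- libraries. The groups were well apart, with a log2 fold change of 0.94 ± 0.14 (limma-voom, adjusted p 0.00455) with the block (0.0769 without). The Golgi proteases Mbtps1 and Mbtps2, which release the active SREBP fragment, differed by 0.23 and 0.00 and Insig2 by -0.01, and none of these passed. The desaturases and the elongase of polyunsaturated fatty acids, Fads1, Fads2 and Elovl5, were at 0.39, 0.24 and -0.40 in the fit with the tumor term, and none was called.

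Of 12 genes of sterol efflux, storage and response to oxysterols, 3 (25%) were called higher with the block in limma-voom and none lower. Of all genes, 4.32% were called higher and 4.25% lower in that fit. All 3 calls were lost without the block, where 2 genes (16.7%) had an unadjusted p under 0.05, against 14.3% of all genes. In edgeR 0 were called, with 2 (16.7%) at such a p without and 5 (41.7%) with the block. Of all genes, 12.5% and 19.5% had such a p in those fits. DESeq2 called 1, Abcg1, where 5.45% of all genes with an adjusted p were called. Abcg1 (gene 11307), which exports sterol, was at 23.1, 15.6 and 5.68 CPM in CD34+ and at 49.6, 40.0 and 67.9 CPM in CD34- libraries, with a log2 fold change of 2.01 ± 0.40 without and 1.81 ± 0.37 with the block (limma-voom, adjusted p 0.0858 and 0.0172). The CD34- values were all above the CD34+ values. Nr1h2 (gene 22260), which encodes the sterol-sensing nuclear receptor LXR beta, was at 30.6, 33.2 and 35.1 CPM in CD34+ and 49.6, 47.0 and 57.5 CPM in CD34- libraries, a difference of 0.61 ± 0.15 with the block (adjusted p 0.0366, and 0.170 without it). Ch25h (gene 12642), which makes an oxysterol that holds back SREBP processing, had a difference of 1.08 ± 0.27 with the block and of 0.89 without it (adjusted p 0.0366 and 0.648), at 4.95, 11.7 and 1.91 CPM in CD34+ and 16.4, 22.4 and 4.48 CPM in CD34- libraries, which overlapped between tumors. Abca1, the other main sterol exporter, did not pass and was at -0.23, and the median over the 12 genes was 0.06 without and -0.04 with the block.

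Sequence upstream of the members was read from RefSeq promoter windows of GRCm38.p6, which run from 250 bases before to 50 bases after a transcription start. Of the 29 members, 23 had at least 1 window, 28 windows in all; Fdft1, Fdps, Scd1, Scd2, Sqle and Stard4 had none. The core of a sterol regulatory element, TCACNCCAC on either strand, was in a window of 1 member, Hmgcs1, and in windows of 1.44% of all genes. The CCAAT box, CCAAT on either strand, was in windows of 20 of the 23 members and of 41.1% of all genes, and the GC box GGGCGG of 18 and 38.2%. Sites of different motifs may overlap. A match is only a match of letters, and nothing was measured at these sites. No other spelling of the sterol element was searched for. A window without a match, that of Cyp51 among them, may therefore hold an element of another form.

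The windows of 5 of the called members, and of Hmgcs1 for its sterol element, are given 5′ to 3′ on the gene's strand, with CCAAT boxes and the sterol element in capitals and the box reading ATTGG where it is on the other strand. Srebf1 has 3 windows, all within its annotated span, and the one nearest to the 5′ end of that span is shown. In Hmgcs1 the element TCACCCCAC begins 137 bases before the start, between CCAAT boxes that begin 176 and 45 bases before it. The windows lie at chr13:119690101-119690400 (Hmgcs1, plus strand), chr11:60222532-60222831 (Srebf1, minus), chr5:4104648-4104947 (Cyp51, minus), chrX:8193463-8193762 (Ebp, minus), chr11:100527951-100528250 (Acly, minus) and chr3:129532136-129532435 (Elovl6, plus).
Hmgcs1: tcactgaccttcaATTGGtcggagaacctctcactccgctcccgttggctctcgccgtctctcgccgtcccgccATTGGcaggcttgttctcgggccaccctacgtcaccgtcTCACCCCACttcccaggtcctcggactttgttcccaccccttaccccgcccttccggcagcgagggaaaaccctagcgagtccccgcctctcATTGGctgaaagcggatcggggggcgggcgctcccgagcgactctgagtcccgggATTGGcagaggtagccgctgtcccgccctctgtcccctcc
Srebf1: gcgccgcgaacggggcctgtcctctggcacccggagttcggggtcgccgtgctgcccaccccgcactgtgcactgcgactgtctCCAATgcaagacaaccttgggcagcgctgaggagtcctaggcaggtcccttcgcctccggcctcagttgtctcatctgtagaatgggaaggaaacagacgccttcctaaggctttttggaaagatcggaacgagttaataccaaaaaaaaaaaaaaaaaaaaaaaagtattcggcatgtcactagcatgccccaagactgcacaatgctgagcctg
Cyp51: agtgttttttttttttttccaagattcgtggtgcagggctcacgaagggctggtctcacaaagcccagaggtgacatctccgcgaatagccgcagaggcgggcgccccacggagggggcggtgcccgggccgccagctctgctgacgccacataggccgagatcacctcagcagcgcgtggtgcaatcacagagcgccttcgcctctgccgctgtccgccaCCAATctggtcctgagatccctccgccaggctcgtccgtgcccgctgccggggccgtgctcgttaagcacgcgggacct
Ebp: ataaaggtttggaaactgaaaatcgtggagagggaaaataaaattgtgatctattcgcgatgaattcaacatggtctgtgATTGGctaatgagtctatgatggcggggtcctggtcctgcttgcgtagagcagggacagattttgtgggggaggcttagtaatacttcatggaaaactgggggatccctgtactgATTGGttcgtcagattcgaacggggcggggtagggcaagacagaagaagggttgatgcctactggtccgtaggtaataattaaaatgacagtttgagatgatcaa
Acly: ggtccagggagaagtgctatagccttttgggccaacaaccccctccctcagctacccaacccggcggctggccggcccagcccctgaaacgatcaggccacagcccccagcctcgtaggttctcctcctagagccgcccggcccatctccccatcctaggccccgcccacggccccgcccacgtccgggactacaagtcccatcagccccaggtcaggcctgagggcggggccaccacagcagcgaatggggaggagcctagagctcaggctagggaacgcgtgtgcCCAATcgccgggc
Elovl6: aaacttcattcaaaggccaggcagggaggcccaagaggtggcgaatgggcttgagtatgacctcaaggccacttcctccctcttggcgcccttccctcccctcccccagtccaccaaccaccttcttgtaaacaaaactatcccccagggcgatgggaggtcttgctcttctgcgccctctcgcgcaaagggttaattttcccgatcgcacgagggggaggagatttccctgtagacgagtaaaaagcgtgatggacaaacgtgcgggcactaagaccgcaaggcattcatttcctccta

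Among the windows shown, those of Hmgcs1, Srebf1, Cyp51, Ebp and Acly hold a CCAAT box. Ebp, called higher, has boxes that begin 170 and 55 bases before the start, and Cyp51, also called higher, has 1 that begins 29 bases before it. Acly, called lower, has 1 that begins 37 bases after the start, and the window of Elovl6, called lower with the largest change, has no match to CCAAT. Hmgcs1, with 4 boxes and the sterol element, did not pass. Boxes were in windows of 20 of the 23 members, most of them not called. Whether boxes go with the direction of a difference was not tested.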

How the data were processed

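Reads were mapped by the authors to GRCm38 (mm10), and Rsubread gave counts for each NCBI gene; featureCounts is the tool named in the submitters' processing notes. The deposited values are raw counts, not normalized and with replicates kept apart; strand use and the treatment of reads with several matches are not given in the sources used here. Libraries were made from total RNA with a TruSeq kit, and the deposited table also holds a gene length in bases, from which RPKM were computed here.

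Groups and tumor numbers came from the sample titles. As in the study's methods, genes of low count were left out by filterByExpr (minimum count 10, its default), TMM factors of edgeR scaled the libraries, and limma-voom compared the groups, with two-sided p-values adjusted by Benjamini-Hochberg over all 14855 genes tested and a threshold of 0.05. Genes without a symbol (1310) were kept here, whereas the study left out genes with no annotation; leaving them out was an alternative. CPM use the library total times its TMM factor. Both fractions of a number came from the same tumor, and after removal of each group's mean the partners correlated across genes at 0.373, 0.350 and 0.219 for tumors 1, 2 and 3. A fit with the tumor as a replicate block was therefore run as well. Values of the lesser members are given from that fit alone where so stated. R 4.3.3, limma 3.58.1, edgeR 4.0.16 and DESeq2 1.42.0 were used, and the tests were tried on simulated data.

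The members and lists were chosen with earlier results of these data known, so no test was run over the list. All members are named. Values per library are given for the regulators, members called with or without the block, members without overlap, and others that were chosen after their values were seen. Of other pathway genes, those called are named, with a few more chosen after their values were seen. Gene positions and promoter windows are those of RefSeq for GRCm38.p6, joined on the NCBI gene number. Alternatives covered normalization, filter, annotation, test, block, sample weights, each library and each tumor. Thinning of the counts was added after seeing the data.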

Additional observations from a re-analysis of the deposited data

How the results depend on the processing

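No member was called in limma-voom without the block under size factors of DESeq2, without a low-count filter, with symbols only, after thinning, or without any library or tumor. Other settings moved the counts. All genes called numbered 18, and 9 in edgeR, 698 in DESeq2, 161 with sample quality weights, 1273 with the replicate block, 575 in edgeR with the block and 941 after thinning with the block; without each library or tumor they ranged from 0 (without CD34+ library 2, among others) to 2019 (without tumor 3, with the block). Without tumor 1 and without the block, 86 genes were called. With the block, 1134 genes were called without tumor 1 and 851 without tumor 2. Members called numbered 0, and 3 in DESeq2, 1 with sample weights, 6 with the block, 3 in edgeR with the block and 5 after thinning with it, and 0 to 8 over the fits without a library or tumor (5, 3 and 8 without tumors 1, 2 and 3, with the block).

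The median log2 fold change of all members, 0.08, was 0.29 in edgeR, 0.28 in DESeq2, 0.29 with the block in limma-voom and in edgeR, 0.34 after thinning and 0.33 after thinning with the block. Without each library or tumor it ranged from -0.03 (without CD34- library 3) to 0.43 (without CD34- library 1). With the block it was 0.32, 0.12 and 0.42 without tumors 1, 2 and 3. That of the sterol genes, 0.21, ranged from -0.01 (without CD34+ library 1) to 0.52 (without CD34- library 1). With the block it was 0.41, 0.17 and 0.45 without tumors 1, 2 and 3. The causes were not tested. Over all 3 tumors the block changed the calls of the 6 members named and of no other member; without tumor 3 it also gave calls to Srebf2, Sqle and Sc5d. With 3 tumors and member counts down to 9, small differences in the low genes, such as Tm7sf2 and Lss, were not detectable.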

Other observations

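Genes of fatty acid oxidation, the route that breaks down what the synthesis genes build, were compared as a further list. Of 13 genes, none passed in limma-voom with or without the block, nor in edgeR or DESeq2, and 4 (30.8%) without and 5 (38.5%) with the block had an unadjusted p under 0.05 in limma-voom, where 14.3% and 23.3% of all genes tested did. The median log2 fold change was -0.07 without and -0.04 with the block. Of the 13, 5 were lower and 1 higher in 3 of 3 tumors, where 23.4% and 22.8% of all genes tested were so. Hadhb, a subunit of the mitochondrial trifunctional protein, was at -0.55 with the block (limma-voom, adjusted p 0.0732), Etfdh at -0.57 and Acadm at -0.49, each lower in CD34- CAFs in 3 of 3 tumors. Acads, which acts on short chains, was at 0.75 and higher in 3 of 3 tumors. Cpt1a, which admits long chains to mitochondria, was at 0.01. These genes were chosen after their values were seen.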
